A study of Mus musculus with 9 samples.

Results

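A set of 10 genes that are transcribed in response to ERK signaling were followed in 4T1 primary tumors of mice treated with the FAK inhibitor BI 853520 (abbreviated BI) or with vehicle. They were chosen by symbol: the MAP kinase phosphatase genes Dusp4, Dusp5 and Dusp6, the Sprouty genes Spry1, Spry2 and Spry4, the Sprouty-related gene Spred1, the ETS transcription factor genes Etv4 and Etv5, and Phlda1. All 10 matched a row of the 18755 genes counted through their Entrez identifiers, and all 10 passed the filter on low counts that left 13966 genes for testing. 4T1 cells, a metastatic mammary tumor cell line of BALB/c origin, were injected into a mammary fat pad of female BALB/c mice that were 6 to 10 weeks old. From day 15 after injection, mice received for 5 days either 50 mg/kg BI (6 tumors, numbered 4 to 9) or 0.5% Natrosol, the vehicle (3 tumors, numbered 1 to 3). Each tumor gave 1 library of messenger RNA from a snap-frozen piece of the whole tumor, so that tumor cells and host cells were measured together. The study kept tumors with sufficient RNA quality, and the sample labels name no batch and do not say that each tumor came from a separate mouse, so the p-values measure the spread between these tumors.

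ERK is the last kinase of the RAS, RAF and MEK cascade, through which growth factor receptors and integrins, the latter by way of FAK and SRC, drive proliferation and migration. Active ERK induces genes whose products act back on the cascade. The dual-specificity phosphatases remove the activating phosphates from ERK, the Sprouty and SPRED proteins block the path between receptor and RAF, and ETV4 and ETV5 carry the signal on to transcription. Transcripts of these genes are therefore widely read as a measure of ERK output in tumors.

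Total counts per library ranged from 16931607 to 33850245, and the deepest library was that of vehicle tumor 3. Expression is given as CPM (counts scaled to the library total and normalized between libraries by TMM, whose factors lay between 0.984 and 1.02). The lowest count of any of the 10 genes in any library was 157, for Dusp5, so that none was near the floor of 3 counts. Krt8 and Krt18, keratin genes of the 4T1 tumor cell, were abundant in both groups, at 478 ± 58.3 and 579 ± 57.7 CPM in vehicle tumors (SD, n = 3). Epcam was at only 2.13 ± 0.603 CPM there.

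After BI treatment 4 of the 10 genes fell and none rose (quasi-likelihood test of edgeR, p adjusted by Benjamini-Hochberg over the 13966 genes and called at 0.05 or less). Those that fell were Dusp4, Dusp5, Spry2 and Spred1. Among all genes tested, 14.1% fell and 14.6% rose by this rule, together 28.7%. At an unadjusted p of at most 0.05, 5 of the 10 were lower and 1, Phlda1, was higher, and the likelihood ratio test of edgeR called Phlda1 as well. The largest of these unadjusted p values, that of Etv4 (0.0491, edgeR), ranked 5658 from the smallest among the 13966 genes. Values this small were therefore common among all genes. The same 4 genes, and no other of the 10, had all BI tumors below all vehicle tumors, against 14.0% of the genes tested. The median log2 fold change was -0.07 over the 10 genes and -0.00371 over all genes tested. Under the cutoffs used in the study, an unadjusted p of at most 0.05 and a change of 1.5-fold or more, only Dusp4 was lower, where 3.57% of the genes tested were lower and 9.59% higher.

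**Figure D1:**
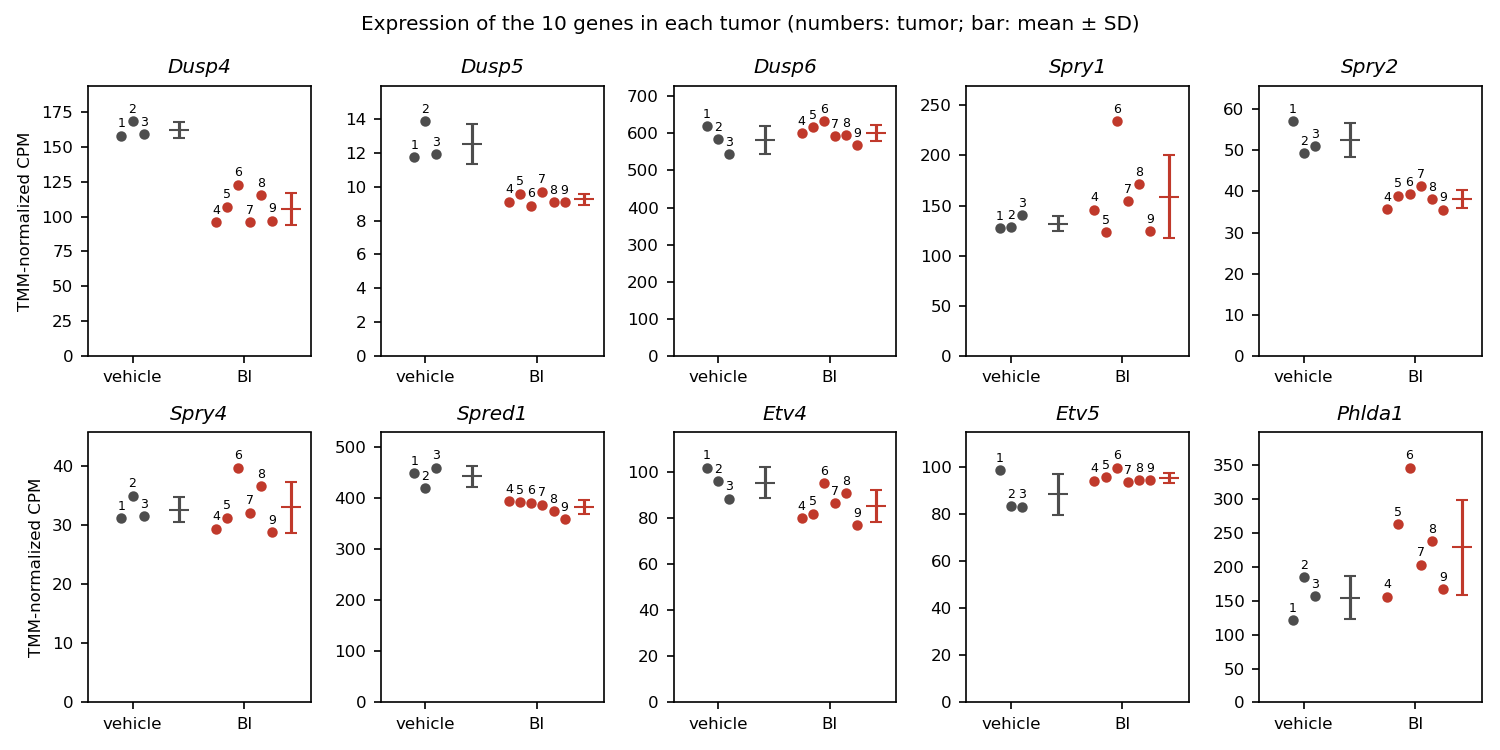
Each panel plots the TMM-normalized CPM of 1 gene (y axis, starting at 0) in the 3 vehicle tumors (grey, 1 to 3) and the 6 BI tumors (red, 4 to 9), with the mean ± SD beside the points. The groups are separate for Dusp4, Dusp5, Spry2 and Spred1, and BI tumor 6 is the highest BI tumor for Dusp4, Dusp6, Spry1, Spry4, Etv4, Etv5 and Phlda1.

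Among the phosphatase genes, Dusp4 changed most. Its product acts in the nucleus on ERK and on the stress-activated kinases. Dusp4 (chromosome 8 of mm9, 35870351 to 35882948, plus strand) was at 158, 168 and 159 CPM in the 3 vehicle tumors, and at 96.0 CPM in the lowest, 102 CPM at the median and 123 CPM in the highest BI tumor. The highest BI tumor lay below the lowest vehicle tumor by 0.36 on the log2 scale. Its log2 fold change was -0.61 (SE 0.0820, adjusted p = 0.000281, edgeR), a decrease of 34.7% with a 95% interval of -42.3% to -26.1%. Dusp5 encodes a nuclear phosphatase selective for ERK and lies on chromosome 19 of mm9 (53603599 to 53616921, plus strand). It was at 11.7, 13.9 and 11.9 CPM in vehicle tumors, and at 8.89, 9.11 and 9.71 CPM in the lowest, median and highest position among BI tumors. All 6 BI tumors again lay below all vehicle tumors, within a narrow range. For Dusp5 the log2 fold change was -0.43 (SE 0.0892, adjusted p = 0.00401, edgeR).

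Dusp6, whose product is a cytoplasmic phosphatase of ERK, lies on chromosome 10 of mm9 (98725865 to 98730122, plus strand). It was at 619, 584 and 543 CPM in vehicle tumors, and among BI tumors at 567.6 CPM in the lowest, 598 CPM at the median and 633 CPM in the highest. The groups overlapped, and 1 of 6 BI tumors was above all vehicle tumors. The log2 fold change was 0.05 (SE 0.0625, adjusted p = 0.623, edgeR), with a 95% interval of -6.11% to 13.4% for the change. In the interval of Dusp6 no decrease of the size seen for Dusp4 or Dusp5 was contained. Without vehicle tumor 3 its log2 fold change was -0.0031.

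The difference between the phosphatase genes was tested within each tumor, as the log2 ratio of their CPM, by an exact permutation test over the 84 divisions of the 9 tumors into 3 and 6, two-sided. The smallest p this test can give is 0.0238, and 10 ratios between genes of the same family were tested after the values of the genes had been seen. Ratios between other genes were not tested, so no background share of separated ratios can be given. The ratio of Dusp4 to Dusp6 fell by 0.67, from between -1.97 and -1.77 in vehicle tumors to between -2.64 and -2.36 in BI tumors (p = 0.0238, adjusted over the 10 ratios 0.0340, exact permutation test). That of Dusp5 to Dusp6 fell by 0.47, with all 6 BI tumors below all vehicle tumors (same exact p). The ratio of Dusp4 to Dusp5 did not pass: it was lower by 0.19 on average, with 4 of 6 BI tumors below and 1 above all vehicle tumors (exact permutation test, p = 0.167). That log2 ratio was between 3.59 and 3.74 in vehicle tumors and between 3.29 and 3.78 in BI tumors.

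To show the sequence at the start of a gene that fell beside that of a relative that was not called, the promoter windows of Dusp5 and Dusp6 are given 5′ to 3′ from RefSeq, 250 bases before and 50 after the start of the gene on its own strand, in build GRCm38.p6. Capitals mark matches, on either strand, to CCGGAA (an ETS motif), TGANTCA (an AP-1 motif), TGACG (the core of a cAMP response element) or the CArG box, to which the serum response factor SRF binds.
Dusp5, chr19:53528895-53529194: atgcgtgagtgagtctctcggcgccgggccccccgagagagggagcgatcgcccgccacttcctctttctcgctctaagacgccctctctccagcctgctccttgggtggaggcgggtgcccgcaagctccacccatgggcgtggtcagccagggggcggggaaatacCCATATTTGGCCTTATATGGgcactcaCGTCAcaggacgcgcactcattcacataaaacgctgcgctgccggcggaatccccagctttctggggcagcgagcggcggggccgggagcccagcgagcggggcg
Dusp6, chr10:99262981-99263280: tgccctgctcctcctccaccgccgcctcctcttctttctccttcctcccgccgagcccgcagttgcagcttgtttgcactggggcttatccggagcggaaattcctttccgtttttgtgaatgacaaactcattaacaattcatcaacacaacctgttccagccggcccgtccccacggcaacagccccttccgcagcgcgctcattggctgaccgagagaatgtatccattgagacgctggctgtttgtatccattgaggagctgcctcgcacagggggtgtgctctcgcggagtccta
The Dusp5 window held 2 CArG boxes, starting 82 and 72 bases before the gene's start, and 1 match to TGACG on the minus strand starting 55 bases before it. The Dusp6 window held no match to any of the 4. The CArG box was added to the motifs after the data had been seen, so this difference between the windows is a description only. Over all 32851 windows of 300 bases in the RefSeq table, 14.9% held CCGGAA, 7.81% TGANTCA, 20.8% TGACG and 1.63% a CArG box, and in the 7 windows of the 6 genes listed there no match overlapped another.

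Of the Sprouty genes, Spry2 alone passed the test. SPRY proteins hold back signaling from receptor tyrosine kinases to RAS and RAF. Spry2 (chromosome 14 of mm9, 106291166 to 106296036, minus strand) was at 57.1, 49.3 and 51.1 CPM in vehicle tumors. Among BI tumors it ranged from 35.6 to 41.3 CPM with a median of 38.6 CPM. Every BI tumor was therefore below every vehicle tumor. Its log2 fold change was -0.46 (SE 0.0689, adjusted p = 0.000594, edgeR), a decrease of 27.1% with a 95% interval of -34.3% to -19.2%.

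Spry1 (chromosome 3 of mm9, 37538869 to 37543520, plus strand) was at 127, 128 and 141 CPM in vehicle tumors, and at 124, 150.2 and 234 CPM in the lowest, median and highest BI tumor. The spread among BI tumors was wide, with a coefficient of variation of 25.8% against 5.66% among vehicle tumors, and BI tumors lay on both sides of the vehicle range (4 above, 2 below). The log2 fold change of Spry1 was 0.27 (SE 0.171, adjusted p = 0.261, edgeR), and 0.13 without BI tumor 6, the highest. Its 95% interval, from -6.95% to 55.9%, leaves the size of any change uncertain. Spry4 (chromosome 18 of mm9, 38745922 to 38760922, minus strand) was at 31.2, 35.0 and 31.5 CPM in vehicle tumors, and between 28.8 and 39.7 CPM in BI tumors with a median of 31.7 CPM. The BI tumors surrounded the vehicle tumors, with 2 above and 2 below all of them. For Spry4 the log2 fold change was 0.02 (SE 0.103, adjusted p = 0.91, edgeR), with a 95% interval of -13.3% to 18.4%, and its sign changed when vehicle tumor 1 or 3 or BI tumor 6 or 8 was left out.

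SPRED1 brings neurofibromin, an inactivator of RAS, to the membrane. Spred1 (chromosome 2 of mm9, 116947110 to 117008015, plus strand) was at 449.5, 420.0 and 459.8 CPM in vehicle tumors and at 359, 389.5 and 395 CPM in the lowest, median and highest BI tumor. The separation of the groups was narrow, 0.09 on the log2 scale. Its log2 fold change was -0.21 (SE 0.0568, adjusted p = 0.0169, edgeR), a decrease of 13.6%. This call was lost without vehicle tumor 1 (adjusted p = 0.0662, edgeR) or without vehicle tumor 3 (0.0822), with log2 fold changes of -0.20 and -0.18.

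Of the 6 ratios within the Sprouty and SPRED genes, 4 separated the groups fully (exact permutation test, p = 0.0238 each, adjusted over the 10 ratios 0.0340). These ratios share genes, and how often ratios of other gene pairs separate the groups was not determined, so the count is a description. The ratio of Spry1 to Spry2 was higher by 0.69 in BI tumors, that of Spry1 to Spred1 by 0.44, and the ratios of Spry2 to Spry4 and of Spry2 to Spred1 fell by 0.47 and by 0.25. Thus Spry2 decreased relative to each of the other 3 genes. The ratios of Spry1 to Spry4 and of Spry4 to Spred1 overlapped between groups (exact permutation test, p = 0.119 for each).

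The promoter windows of Spry1 and Spry2 are shown for the same reason as those of the phosphatases, with the same motifs in capitals.
Spry1, chr3:37639697-37639996: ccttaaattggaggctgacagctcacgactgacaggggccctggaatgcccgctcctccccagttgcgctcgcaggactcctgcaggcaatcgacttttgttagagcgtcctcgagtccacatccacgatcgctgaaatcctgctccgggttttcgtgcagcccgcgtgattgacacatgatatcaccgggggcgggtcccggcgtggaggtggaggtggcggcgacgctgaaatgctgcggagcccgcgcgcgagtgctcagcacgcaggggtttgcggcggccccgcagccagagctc
Spry2, chr14:105896770-105897069: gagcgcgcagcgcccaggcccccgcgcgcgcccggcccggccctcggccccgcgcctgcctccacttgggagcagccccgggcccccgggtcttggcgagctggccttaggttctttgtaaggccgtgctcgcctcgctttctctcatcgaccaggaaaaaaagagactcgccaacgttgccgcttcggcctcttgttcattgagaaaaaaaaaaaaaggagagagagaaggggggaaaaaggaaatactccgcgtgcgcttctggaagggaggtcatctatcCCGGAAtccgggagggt
The Spry2 window, on the minus strand of the chromosome, held 1 match to CCGGAA, starting at base 34 after the start of the gene. None of the 4 motifs was found in the window of Spry1, nor in that of Spred1 or the 2 windows of Etv5. No window was listed for Dusp4, Spry4, Etv4 and Phlda1.

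**Figure D2:**
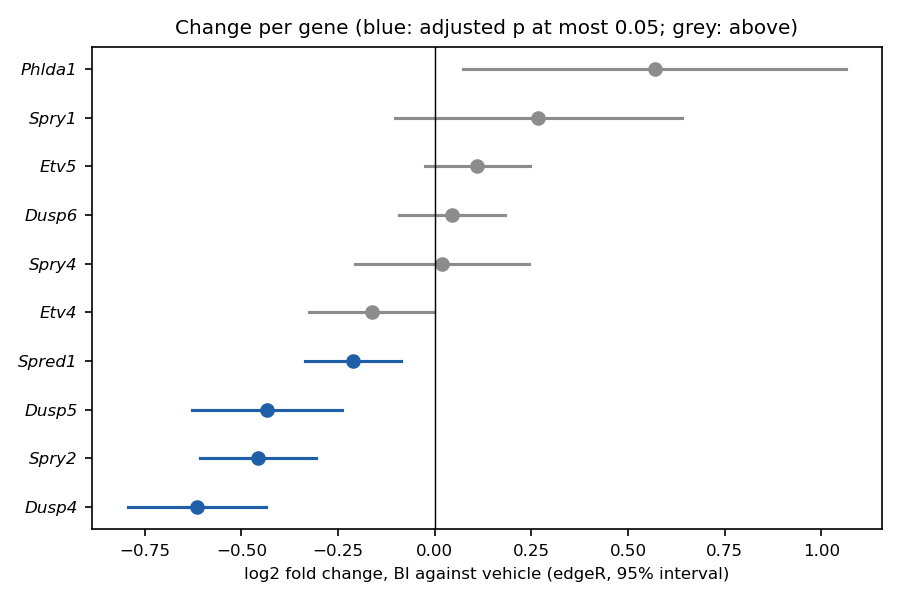
Points give the log2 fold change of BI against vehicle tumors for each gene (x axis, edgeR) and lines the 95% interval, with blue for an adjusted p of at most 0.05. Dusp4, Spry2, Dusp5 and Spred1 lie left of 0, and Phlda1, with the longest interval, lies farthest right at 0.57.

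Etv4 and Etv5 encode closely related ETS factors that are themselves induced by ERK. Etv4 (chromosome 11 of mm9, 101631056 to 101646685, minus strand) was at 102, 96.1 and 88.5 CPM in vehicle tumors and between 77.1 and 95.2 CPM in BI tumors, with a median of 84.2 CPM. In 4 of 6 BI tumors it was below all vehicle tumors. The log2 fold change was -0.16 (SE 0.0741, adjusted p = 0.121, edgeR) and did not pass. Etv5 (chromosome 16 of mm9, 22381382 to 22439792, minus strand) was at 98.5, 83.2 and 83.1 CPM in vehicle tumors and between 93.4 and 99.6 CPM in BI tumors, with a median of 94.3 CPM. Vehicle tumor 1 was within the range of the BI tumors, and the other two vehicle tumors were below it. For Etv5 the log2 fold change was 0.11 (SE 0.0619, adjusted p = 0.203, edgeR). Without vehicle tumor 1 it was 0.19 and passed (adjusted p = 0.0351, edgeR). The log2 ratio of Etv4 to Etv5 fell by 0.28, from between 0.05 and 0.21 in vehicle tumors to between -0.29 and -0.05 in BI tumors (exact permutation test, p = 0.0238, adjusted over the 10 ratios 0.0340). Neither gene was called by itself. Their ratio was lower in all BI than in all vehicle tumors, but it was tested after the values had been seen and 0.0238 is the smallest p of this exact permutation test.

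PHLDA1 is a small protein with a pleckstrin homology-like domain, and its gene is induced by growth factors. Phlda1 (chromosome 10 of mm9, 110943342 to 110945705, plus strand) was at 122, 185 and 156 CPM in vehicle tumors, and at 156, 221 and 346 CPM in the lowest, median and highest BI tumor. It varied more than any other of the 10 genes within both groups, with coefficients of variation of 20.5% and 30.8%. Its log2 fold change was 0.57 (SE 0.227, adjusted p = 0.0803, edgeR), with 4 of 6 BI tumors above all vehicle tumors. Phlda1 passed without BI tumor 4 (adjusted p = 0.0372, edgeR) or without BI tumor 9 (0.0494), the lowest BI tumors, and without BI tumor 6 the log2 fold change was 0.41.

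Per length of the gene, Dusp6 was the most abundant of the 10 in both groups, at 208 ± 13.6 CPM per kilobase in vehicle and 215 ± 7.95 CPM per kilobase in BI tumors (SD, n = 3 and n = 6). In vehicle tumors it was followed by Phlda1 (79.0 ± 16.2), Dusp4 (66.7 ± 2.34), Spred1 (62.5 ± 2.92), Spry1 (53.0 ± 3.00) and Etv4 (40.9 ± 2.89), on the same scale. Spry2 (25.1 ± 1.95), Etv5 (23.1 ± 2.31), Dusp5 (10.8 ± 1.03) and Spry4 (7.09 ± 0.459 CPM per kilobase) were lower. Neighbors in this order overlapped for Phlda1 with Dusp4 and for Spry2 with Etv5. In BI tumors Dusp4 ranked 5, at 43.6 ± 4.73 CPM per kilobase, after Spry1 (63.9 ± 16.5) and Spred1 (54.1 ± 1.97), and its range overlapped that of Spred1 above and Etv4 below. Spry2 (18.3 ± 1.06) stood below Etv5 (24.9 ± 0.593 CPM per kilobase) without overlap, and Dusp5 (8.01 ± 0.283) overlapped Spry4 (7.18 ± 0.936). Between the groups Dusp4 shifted from rank 3 to 5 and Spry2 from 7 to 8, while Dusp6 stayed in first place.

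**Figure D3:**
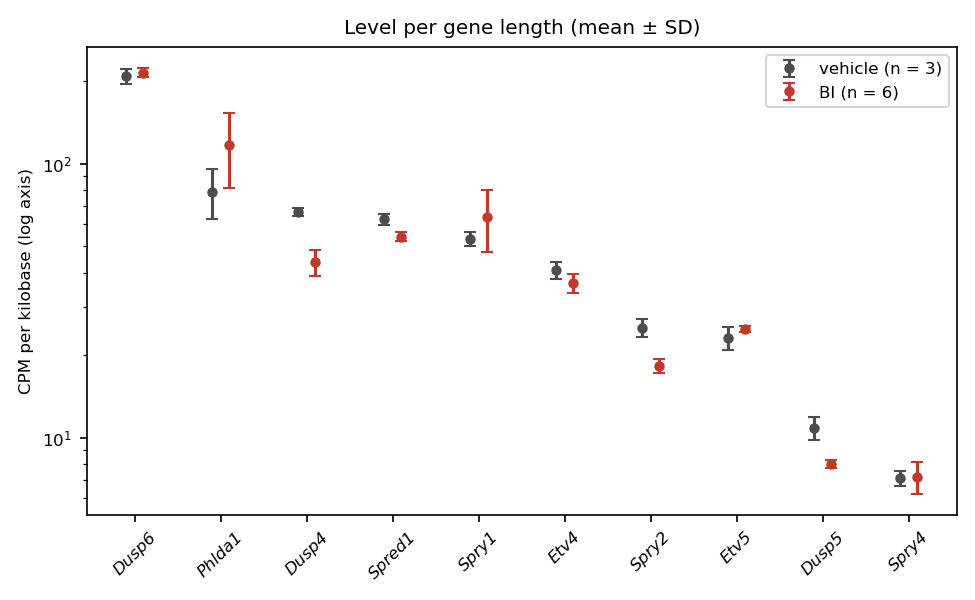
The y axis gives CPM per kilobase of gene length on a log scale for each gene (x axis, ordered by the vehicle mean), as mean ± SD of the 3 vehicle (grey) and 6 BI tumors (red). Dusp6 is highest in both groups, at 194 CPM per kilobase or more in every tumor, and Spry4 is lowest.

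The 10 genes were also compared with each other among the 6 BI tumors, which were given the same dose. Of 45 pairs, 38 had a positive Pearson correlation of log2 CPM, with r between -0.54 and 0.98, and 22 had one when the 2 tumors farthest from the median of the first gene of the pair were left out. Spry4 and Etv4 had the closest relation (r = 0.98, exact permutation p = 0.00139, Spearman's rho = 1.0, exact permutation p = 0.00278), but the adjusted p of r over the 45 pairs was 0.0625. No pair reached an adjusted p of 0.05, while the unadjusted exact p was at most 0.05 for 8. Leaving out the 2 tumors farthest from the median of Spry4 left r at 0.95 over 4 tumors. BI tumor 6 was the highest of the BI tumors for 7 of the 10 genes, and leaving out the 2 tumors farthest from the median took Dusp4 and Spry4 from r = 0.92 to r = 0.32. Leaving them out narrows the range of the first gene, which by itself tends to lower r, and depends on which gene is first. These drops therefore cannot show that the correlations rest on single tumors. How many pairs of other genes had a positive r was not determined. By the root-mean-square difference of centered log2 CPM over all 9 tumors, the genes most like Dusp6 were Tmub2, Fbxw5, Tmem222, Ubap2l and Diablo, at 0.0321 to 0.0344, with log2 fold changes between 0.00883 and 0.08. Of the other 9 genes Etv5 came closest to Dusp6, at 0.0556, which ranked 71 of all genes tested, and Etv4 followed at 0.12 and Spry4 at 0.13. Dusp6 itself varied little, with coefficients of variation of 6.53% among vehicle and 3.70% among BI tumors. The measure therefore favors genes that varied little, and a small difference from Dusp6 does not show that a gene is regulated with it.

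Lists of other genes around ERK signaling are given for comparison. They were chosen with earlier results of these data known, so their counts are descriptions. For comparison with each list, 14.1% of all genes tested fell and 14.6% rose (edgeR, adjusted p of at most 0.05), together 28.7%. Of 17 other tested genes of ERK and MAP kinase feedback, 3 fell and 3 rose (edgeR, adjusted p of at most 0.05). The 3 with the smallest p were Ptpn7, a tyrosine phosphatase gene of hematopoietic cells (log2 fold change 0.39), Dusp10, encoding a phosphatase of p38 and JNK (-0.44), and Dusp9, encoding another phosphatase of ERK (-1.06, from 11.0 ± 1.31 to 5.31 ± 1.66 CPM). Errfi1, the feedback inhibitor of the EGF receptor and per length the most abundant of the list, was at 351 CPM in vehicle and 364 CPM in BI tumors on average (adjusted p = 0.836, edgeR). Among the 24 genes of the cascade itself, 4 rose and 3 fell, and the median log2 fold change was 0.04. Rps6ka1, a kinase gene downstream of ERK, rose by 0.67 on the log2 scale, and the adaptor genes Gab1 and Gab2 rose by 0.74 and 0.42. The genes that fell were Frs2, Map2k1 and Rasa1, with log2 fold changes of -0.29, -0.17 and -0.16. Mapk3, which encodes ERK1 and was the most abundant of the cascade per length, was at 222 ± 14.3 CPM in vehicle and 229 ± 11.8 CPM in BI tumors (adjusted p = 0.59, edgeR).

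The list of immediate-early and late targets of ERK was also chosen with earlier results of these data known. Of its 25 genes, 12 fell and none rose (edgeR, adjusted p). At an unadjusted p of at most 0.05 none rose either, and DESeq2, limma-voom and the likelihood ratio test of edgeR also gave 12 and 0. These tests used the same tumors and the same list, so they are not separate evidence, and the count is a description. The median log2 fold change of the list was -0.19, and among all genes tested 14.1% fell and 14.6% rose by the adjusted p. Of the 12 genes that fell, Phlda2 had only 1 to 23 counts per library. The list also held Srf, Elk1, Elk3 and Elk4, which encode factors through which ERK acts on transcription. It is therefore not a list of ERK targets alone. Elk3 was among the 12 that fell (log2 fold change -0.19), and Srf, Elk1 and Elk4 were not called. The 13 genes not called included Fos, Jun, Junb, Egr2, Egr3, Ier2 and Atf3, while the immediate-early genes Fosb and Egr1 fell. The smallest p values belonged to Ier3, an early response gene of cell survival (log2 fold change -0.75), Maff, a small MAF transcription factor gene (-0.74), and Hmga1, encoding a chromatin protein of proliferating cells (-0.91). In each of these 3 genes all BI tumors were below all vehicle tumors. Ccnd1, the gene of cyclin D1 and per length the most abundant of the list, fell from 1491 ± 91.2 to 1050 ± 188 CPM (adjusted p = 0.0165, edgeR), a call that was lost without vehicle tumor 1 (0.0709) or vehicle tumor 3 (0.0538).

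Upstream of ERK, 6 of 18 receptor genes tested fell and 4 rose. Met, the receptor of hepatocyte growth factor, fell from 155 ± 12.4 to 73.1 ± 8.00 CPM (log2 fold change -1.08, adjusted p = 1.9e-05, edgeR), and Axl, the most abundant per length, by 0.47 on the log2 scale. Csf1r, the receptor gene of macrophages, rose by 0.91, and 3 of the 4 receptor genes that rose (Csf1r, Kit and Kdr) were also on the marker lists of host cells described below. Of 22 ligand genes tested, 6 fell and 4 rose. The 3 with the smallest p encode ligands of the EGF receptor family, and each fell with all BI tumors below all vehicle tumors. Hbegf fell by 1.22, Tgfa by 0.65 and Ereg by 1.44 on the log2 scale. Pdgfa, the most abundant ligand gene per length, fell by 0.52, a call lost without vehicle tumor 2 (adjusted p = 0.0751, edgeR) or vehicle tumor 3 (0.116). Of the 9 genes of FAK and its adaptors, 5 fell and none rose (1 was higher at an unadjusted p of at most 0.05, and edgeR's likelihood ratio test, DESeq2 and limma-voom called none). Vcl, encoding vinculin and the most abundant per length, fell by 0.48, Bcar1 (p130Cas) by 0.45 and Nedd9 by 0.36, the last a call lost without vehicle tumor 3 (adjusted p = 0.103, edgeR).

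**Figure D4:**
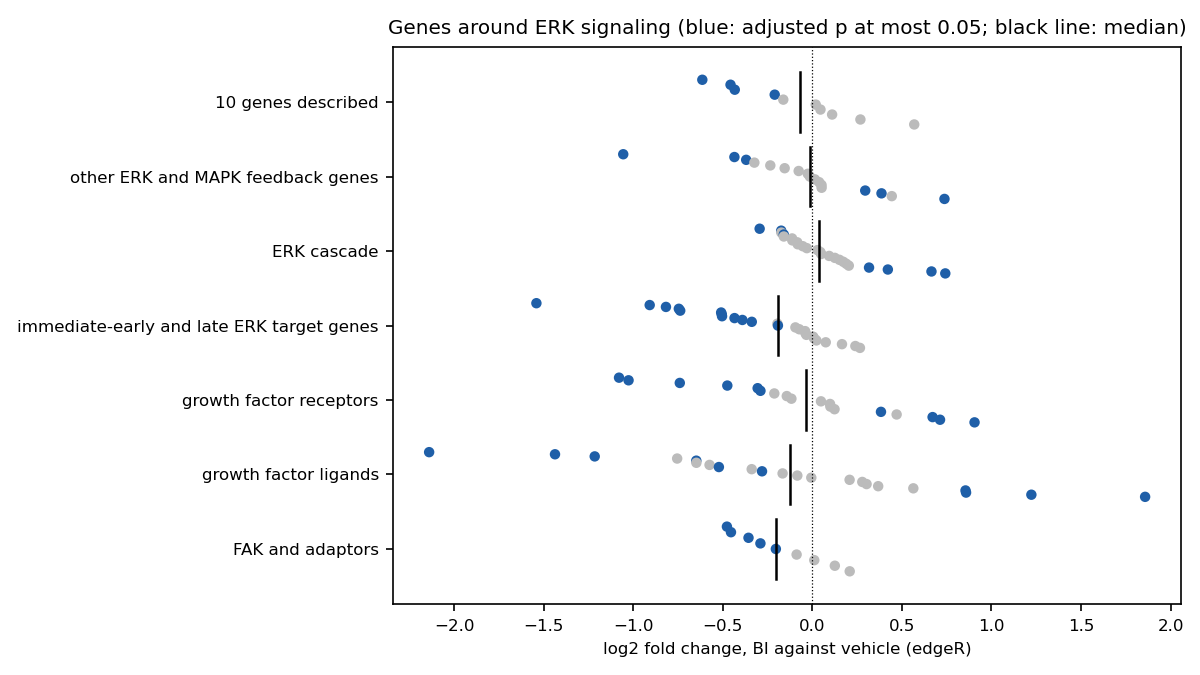
Each point is a gene tested, placed by its log2 fold change of BI against vehicle tumors (x axis, edgeR) within its list (y axis, points spread for legibility), blue where the adjusted p is at most 0.05, with a black line at the median of the list. The blue points of the 10 genes described and those of the list of immediate-early and late ERK targets all lie left of 0. In both lists the other points lie on both sides of 0.

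Because whole tumors were sequenced, fewer cells of a type and less RNA per cell cannot be told apart, and marker genes of several cell types moved with treatment. The summed CPM of 12 markers of tumor epithelium was between 967 and 1191 in vehicle and between 761 and 969 in BI tumors, with 2 genes falling (Krt8 and Krt18) and none rising, although the median log2 fold change was 0.13. At an unadjusted p of at most 0.05, 2 of the 12 were higher, and DESeq2 and the likelihood ratio test of edgeR called 1. The 12 macrophage markers summed to between 3291.5 and 4155 CPM in vehicle and between 5690 and 7469 CPM in BI tumors, with 11 rising and 1 falling. Of 11 T cell markers tested 10 rose and none fell by any of the 4 tests run or at an unadjusted p of at most 0.05, and the sum of all 12 was 85.8 to 93.7 CPM in vehicle and 156 to 227 CPM in BI tumors. The 11 neutrophil markers summed to between 1113 and 1294 CPM in vehicle and between 394 and 878 CPM in BI tumors, with 4 falling, none rising and 7 not called. Most of this sum came from Mmp9 and S100a9, at 517 and 384 CPM in vehicle tumors on average, and Mmp9 was not called. Mmp8 and Ltf, also not called, had log2 fold changes of 0.21 and 0.30. Sums of 12 endothelial markers were 467 to 479 CPM and 522 to 636 CPM, with 4 rising (4 to 6 by the other tests) and none falling. Those of 12 fibroblast markers overlapped, at 2182 to 3770 CPM and 2895 to 6460 CPM. Of the fibroblast markers 2 rose (3 to 6 by the other tests) and none fell. Mast cell markers, 10 genes, summed to between 80.2 and 109 CPM in vehicle and between 97.8 and 547 CPM in BI tumors. Of these genes 7 rose (5 with limma-voom) and 1 fell. The sums of 10 B cell markers (11.9 to 15.3 against 15.2 to 24.8 CPM), 10 adipocyte markers (53.9 to 98.7 against 94.2 to 476 CPM) and 10 skeletal muscle markers (14.2 to 32.4 against 10.3 to 24.1 CPM) overlapped between the groups. Of 7 B cell markers tested, 3 rose (2 with limma-voom) and none fell. Of 10 adipocyte markers 1 rose and none fell, and of 8 muscle markers tested 1 fell and none rose. Of these lists, Ms4a1, Pax5 and Cr2 among the B cell markers and Myh4, Myh1 and Pvalb among the muscle markers had a count of 0 in at least 1 library.

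Among 14 markers of proliferation 5 fell (8 with DESeq2 or the likelihood ratio test of edgeR), and their sum was 2325 to 3191 CPM in vehicle and 1601 to 2403 CPM in BI tumors. Of 10 genes listed for tissue dissociation and stress 6 fell, with sums of 532 to 585 and 433 to 521 CPM. The tumor pieces were snap-frozen, the list mixes stress genes of several kinds, and no difference in handling was measured. Hspa1b and Hspa1a, heat shock genes, fell by 1.76 and 1.32 on the log2 scale and Chac1 by 0.85, while Hspa8, the most abundant per length, was at 229 and 229.6 CPM on average. In neither list was a gene called higher by edgeR, DESeq2 or limma-voom, nor by an unadjusted p of at most 0.05 in edgeR. The part of cell composition, proliferation and tissue handling in the changes of Dusp4, Dusp5, Spry2 and Spred1 was not tested.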

How the data were processed

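Whole 4T1 tumors were sequenced after a stranded, paired-end messenger RNA protocol. The authors aligned the reads to mm9 with STAR, keeping unique alignments, and used QuasR to count, per RefSeq gene, reads whose first base fell in any of its exons. The deposited values are raw counts, and the deposited gene lengths were used for CPM per kilobase. Whether strand was used in counting is not given in the sources used here, and reads with more than 1 alignment were lost. Entrez identifiers were matched to RefSeq symbols (18700 of 18755). Positions in mm9 came from GENCODE vM1, in which no exon of the 10 genes overlapped an exon of another gene. Promoter windows from RefSeq were listed for 6 of the 10 genes.

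Counts were tested with edgeR 4.0.16 in R 4.3.3: filterByExpr (minimum count 10, total 15), TMM and a quasi-likelihood F test between BI and vehicle over all 9 tumors, with no covariate. Log2 CPM used a prior count of 2. Intervals are 95% t intervals from the edgeR standard error, each derived as the fold change over the square root of F. The test was checked on simulated counts. DESeq2 1.42.0, limma-voom (limma 3.58.1), edgeR's likelihood ratio test, other scalings and filters, and leaving out each tumor were alternatives. Thinning to the smallest library, the ratios within families and the CArG motif were added after seeing the data. The members and lists were chosen with earlier results of these data known. Named were all 10 genes, the 3 genes of smallest p and the most abundant per length of each list other than markers, and the 5 genes most like Dusp6. Genes named outside this rule, such as single markers, were chosen after their values were seen.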

Additional observations from a re-analysis of the deposited data

Results flagged for a closer look

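Each of the 10 genes was examined for a single BI tumor far from the other 5 (Dixon's 95% critical value for 6 samples, 0.625). Chance flags about 1 in 20 groups. Etv5 in BI tumor 6, at 99.6 CPM, exceeded the next tumor by 0.634 of the range of the BI tumors, a range that spanned only 93.4 to 99.6 CPM. Groups of 3 vehicle tumors were not examined.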

How the results depend on the processing

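The number of the 10 genes that fell stayed at 4 under RLE factors, library size alone, both other filters, the likelihood ratio test, DESeq2, limma-voom and thinning, and was between 3 and 4 with each tumor left out. The number that rose was 0, or 1 (Phlda1) with the likelihood ratio test (adjusted p = 0.0443, edgeR), and between 0 and 1 with each tumor left out, where that gene was Phlda1 or Etv5. Under the cutoffs of the study, 1 of the 10 was lower, and of all genes 499 were lower and 1339 higher, where the adjusted p alone gave 1973 and 2040. With each tumor left out, 1172 to 1980 genes were lower and 1332 to 2026 higher, the fewest without vehicle tumor 3. Without vehicle tumor 1, 1289 were lower. Leaving out tumors turned the sign of values near 0: log2 fold changes ranged from -0.0031 to 0.091 for Dusp6, from -0.041 to 0.072 for Spry4, from -0.0093 to 0.135 for Errfi1 and from -0.031 to 0.034 for Hspa8, which was at -0.0026 after thinning. The log2 fold change of Dusp4 stayed between -0.66 and -0.59 with each tumor left out, that of Spry2 between -0.50 and -0.39 and that of Dusp5 between -0.48 and -0.35, each with an adjusted p from edgeR of at most 0.0253. The causes were not tested. No paired analysis was possible because the groups share no replicate numbers. With 3 vehicle tumors, changes as small as that of Spred1 depended on single libraries.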
